A study of Mus musculus with 14 samples.

Results

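The Wnt ligands, their Frizzled receptors and the secreted proteins that tune them were followed here as targets of the Polycomb protein RNF2 and of BAP1 in mouse embryonic stem cells. The genes were taken by name from the RefSeq protein-coding genes of GRCm38, as all symbols that begin with Wnt, Fzd, Sfrp, Dkk or Rspo and a number. That gave 41 genes of 21779, namely 19 Wnt, 10 Fzd, 4 Sfrp, 4 Dkk and 4 Rspo genes, spread over 15 chromosomes. Frzb, which encodes a further secreted Frizzled-related protein under another name, was therefore not among the 41 and stands with the other pathway genes at the end. Sequencing of immunoprecipitated chromatin (ChIP-seq) covered RNF2 in 2 BAP1 knockout libraries, 1 RNF2 knockout library and 2 wild-type libraries. It covered BAP1 in 1 library of C91A cells and in 1 library of BAP1 knockout cells, which serves as the control for the antibody. The C91A cells, given as Bap1C91A/- in the protocols, carry a BAP1 whose catalytic cysteine is replaced on their remaining allele, and they alone of these groups were also crosslinked with disuccinimidyl glutarate (2 mM, 30 min). All the cells, wild type included, were C57BL/6 embryonic stem cells that had been exposed for 4 days to emricasan (10 µM), a caspase inhibitor, and to 4-OHT (100 nM), a tamoxifen metabolite. The labels do not give the other knockout alleles, and peaks give no expression markers with which to check the cell type.

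Wnt proteins are secreted, lipid-modified ligands that bind Frizzled receptors together with the co-receptors Lrp5 and Lrp6 and so stabilise β-catenin, or act through β-catenin-independent routes that steer cell polarity and movement. Secreted Frizzled-related proteins (Sfrp) bind Wnts, Dickkopf proteins (Dkk) block the co-receptors, and R-spondins (Rspo) bind Lgr receptors and keep Frizzled receptors at the surface. In embryonic stem cells this pathway is known for its part in self-renewal and in the first steps of differentiation, and many developmental regulators are held silent there by Polycomb. RNF2, also called RING1B, is the catalytic subunit of Polycomb repressive complex 1 and attaches ubiquitin to histone H2A, and BAP1 is an enzyme that takes it off again.

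Polycomb proteins are known in mammals to gather at CpG islands, so promoters that differ in their CG content and in their peaks are shown first. Each is the RefSeq promoter of GRCm38.p6 from 250 bases before to 50 bases after the start, 5′ to 3′ on the gene's strand, with every CG in capitals. Wnt1 lies at chr15:98789607-98789906 on the + strand and had RNF2 over these bases in all 4 BAP1 knockout and wild-type libraries. Wnt11 has a first start at chr7:98834862-98835161 (+), where RNF2 and BAP1 were both called, and a second at chr7:98838595-98838894 (+), where RNF2 alone was called. Fzd9 lies at chr5:135250998-135251297 on the − strand, where RNF2 was called in both BAP1 knockout libraries but in the second wild-type library alone. Wnt8b lies at chr19:44493222-44493521 (+), and no library had a peak over it.
Wnt1: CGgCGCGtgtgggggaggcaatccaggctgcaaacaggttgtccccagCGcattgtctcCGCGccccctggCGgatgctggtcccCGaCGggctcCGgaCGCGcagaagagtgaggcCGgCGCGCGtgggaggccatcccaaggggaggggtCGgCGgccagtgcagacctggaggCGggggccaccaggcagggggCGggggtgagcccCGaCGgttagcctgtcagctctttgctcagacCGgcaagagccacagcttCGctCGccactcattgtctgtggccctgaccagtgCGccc
Wnt11 first start: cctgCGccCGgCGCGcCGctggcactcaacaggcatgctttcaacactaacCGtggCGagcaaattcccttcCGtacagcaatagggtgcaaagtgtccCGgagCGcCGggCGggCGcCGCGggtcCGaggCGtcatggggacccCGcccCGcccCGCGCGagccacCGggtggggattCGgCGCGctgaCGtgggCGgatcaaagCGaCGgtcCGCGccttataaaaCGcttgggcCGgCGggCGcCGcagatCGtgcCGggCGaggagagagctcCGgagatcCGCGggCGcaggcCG
Wnt11 second start: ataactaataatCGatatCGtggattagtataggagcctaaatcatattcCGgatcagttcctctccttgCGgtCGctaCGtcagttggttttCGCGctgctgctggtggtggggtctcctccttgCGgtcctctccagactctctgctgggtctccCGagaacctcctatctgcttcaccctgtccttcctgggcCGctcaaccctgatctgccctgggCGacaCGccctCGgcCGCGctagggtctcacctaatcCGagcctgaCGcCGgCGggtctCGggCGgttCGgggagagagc
Fzd9: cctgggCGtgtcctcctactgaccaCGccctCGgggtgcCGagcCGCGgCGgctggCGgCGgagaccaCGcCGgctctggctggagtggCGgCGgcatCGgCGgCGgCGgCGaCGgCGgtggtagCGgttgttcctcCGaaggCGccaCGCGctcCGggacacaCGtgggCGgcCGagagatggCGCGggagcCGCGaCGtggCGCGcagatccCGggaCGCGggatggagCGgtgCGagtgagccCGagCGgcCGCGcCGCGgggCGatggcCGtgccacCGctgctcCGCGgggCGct
Wnt8b: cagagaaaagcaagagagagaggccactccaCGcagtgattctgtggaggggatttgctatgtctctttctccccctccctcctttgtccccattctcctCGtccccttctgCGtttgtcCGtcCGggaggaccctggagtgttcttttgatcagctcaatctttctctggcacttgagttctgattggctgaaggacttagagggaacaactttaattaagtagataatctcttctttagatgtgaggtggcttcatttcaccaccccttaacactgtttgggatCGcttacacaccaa

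The 5 promoters hold 26 (Wnt1), 45 and 23 (Wnt11), 53 (Fzd9) and 6 (Wnt8b) CG dinucleotides. The promoter table gave a start for 27 of the 41 genes, with 30 promoters, and their median CG count was 28, against 13 over the 21263 promoters of all protein-coding genes. The counts in the family reached from 4, at 1 of the 3 Wnt5b starts, to 58 at Wnt9a. Of the 30 promoters, 21 held at least 20 CG, and RNF2 peaks lay over 19 and 21 of them in the BAP1 knockout libraries and over 13 and 21 in the wild-type libraries. Among all promoters with that many CG, 30.7% and 81.5% had a peak in the BAP1 knockout libraries and 14.5% and 69.3% in the wild-type libraries. The TCF/LEF core letters CTTTGA, searched on both strands, were in 4 of the 30 promoters (13.3%) and in 14.4% of all promoters. The forkhead letters GTAAACA, also on both strands and not overlapping the other motif, were in 0 of the 30 and in 3.01% of all promoters.

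A gene was counted as occupied where a peak overlapped its span extended by 1 kb on each side by at least 1 bp. Depth differed more between the first and second libraries of a genotype than between genotypes. The BAP1 knockout libraries held 54.1 and 139 M tags, the RNF2 knockout library 119 M and the wild-type libraries 58.4 and 149 M. The lists kept 7946 and 39872 RNF2 peaks in BAP1 knockout cells (13.6 and 35.9 Mb), 0 in RNF2 knockout cells, and 4038 and 28770 in wild-type cells (6.93 and 24.5 Mb). The second libraries were also called with another MACS2 version and fragment length, so genotypes were compared between the 2 first libraries and between the 2 second libraries. The BAP1 ChIP held 415 M tags and 2395 peaks in C91A cells, and 32.5 M tags and 144 peaks in BAP1 knockout cells. An exact two-sided permutation test of 2 libraries against 2 cannot go below p = 0.333, so the RNF2 comparisons below are counts and values with no test, and nothing in the labels says that the 2 libraries of a genotype came from separate cultures.

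RNF2 was called at nearly the whole family in every deep library and at most of it in the shallower ones. In the BAP1 knockout libraries 38 and 40 of the 41 genes were occupied, where 26.9% and 63.5% of all protein-coding genes were. In the wild-type libraries 34 and 40 of the 41 were occupied, where 13.4% and 55.3% of all genes were. Both BAP1 knockout libraries had a peak at 38 genes of the family (26.9% of all genes), and both wild-type libraries at 34 (13.4% of all genes). These joint counts repeat those of the first libraries. Of all genes called there, 5858 of 5861 in BAP1 knockout and 2922 of 2922 in wild type were also called in the second library. All 4 libraries shared a peak call at 34 genes of the family, and at 13% of all genes. Gene length was near that of other genes, since the median span was 20.8 kb in the family and 17.2 kb over all genes.

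**Figure D1:**
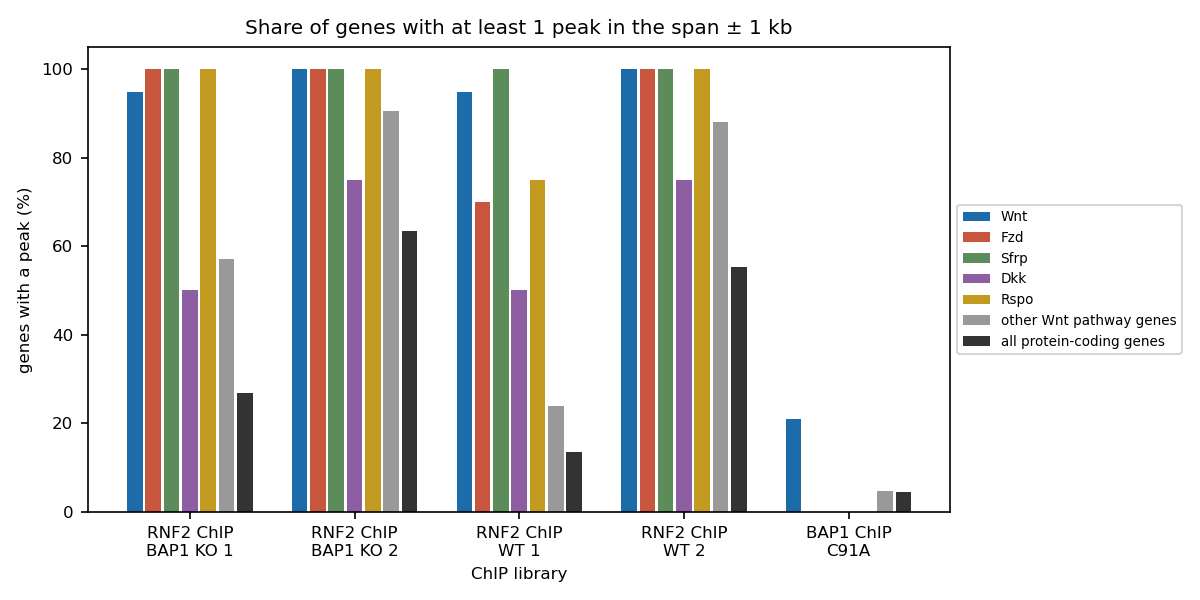
Percent of genes with at least 1 peak in the span ± 1 kb (y axis) in each ChIP library (x axis), by gene class (colours), with other Wnt pathway genes in grey and all protein-coding genes in black. The Wnt class stands at 94.7% or 100% in all 4 RNF2 libraries, the Dkk class at 50% or 75%, and in the BAP1 ChIP of C91A cells the Wnt class alone of the 5 has a bar, at 21.1%.

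By role, occupancy was complete or nearly so for ligands and Sfrp antagonists in both genotypes and was lowest for the Dickkopf genes in both. For receptors and R-spondins it was complete in both BAP1 knockout libraries and in the second wild-type library. It was incomplete only in the shallower first wild-type library. Of the 19 Wnt genes, 18 held a peak in both BAP1 knockout libraries and 18 in both wild-type libraries. Each of the 10 Frizzled genes had RNF2 in both BAP1 knockout libraries, and 7 had it in both wild-type libraries. All 4 Sfrp genes were occupied in both libraries of each genotype. Of the 4 Dkk genes, 2 had RNF2 in both BAP1 knockout libraries and 2 in both wild-type libraries, and of the 4 Rspo genes 4 were in BAP1 knockout and 3 in wild type. The classes hold from 4 to 19 genes, and the differences between them were not tested.

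Classes also differed in how much sequence lay under RNF2 peaks, described here over occupied genes only. In the BAP1 knockout libraries the median covered length per occupied Wnt gene was 4750.5 and 8050 bp, and in the wild-type libraries 2663 and 6702 bp. The Frizzled medians were 2221.5 and 2998.5 bp in BAP1 knockout and 2043 and 2826 bp in wild type. Over all occupied protein-coding genes the medians were 1367 and 1457.5 bp in BAP1 knockout and 1048 and 962.5 bp in wild type. Frizzled genes are short, with a median span of 4.59 kb against 22.9 kb for Wnt genes, which limits the length that can be covered.

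**Figure D2:**
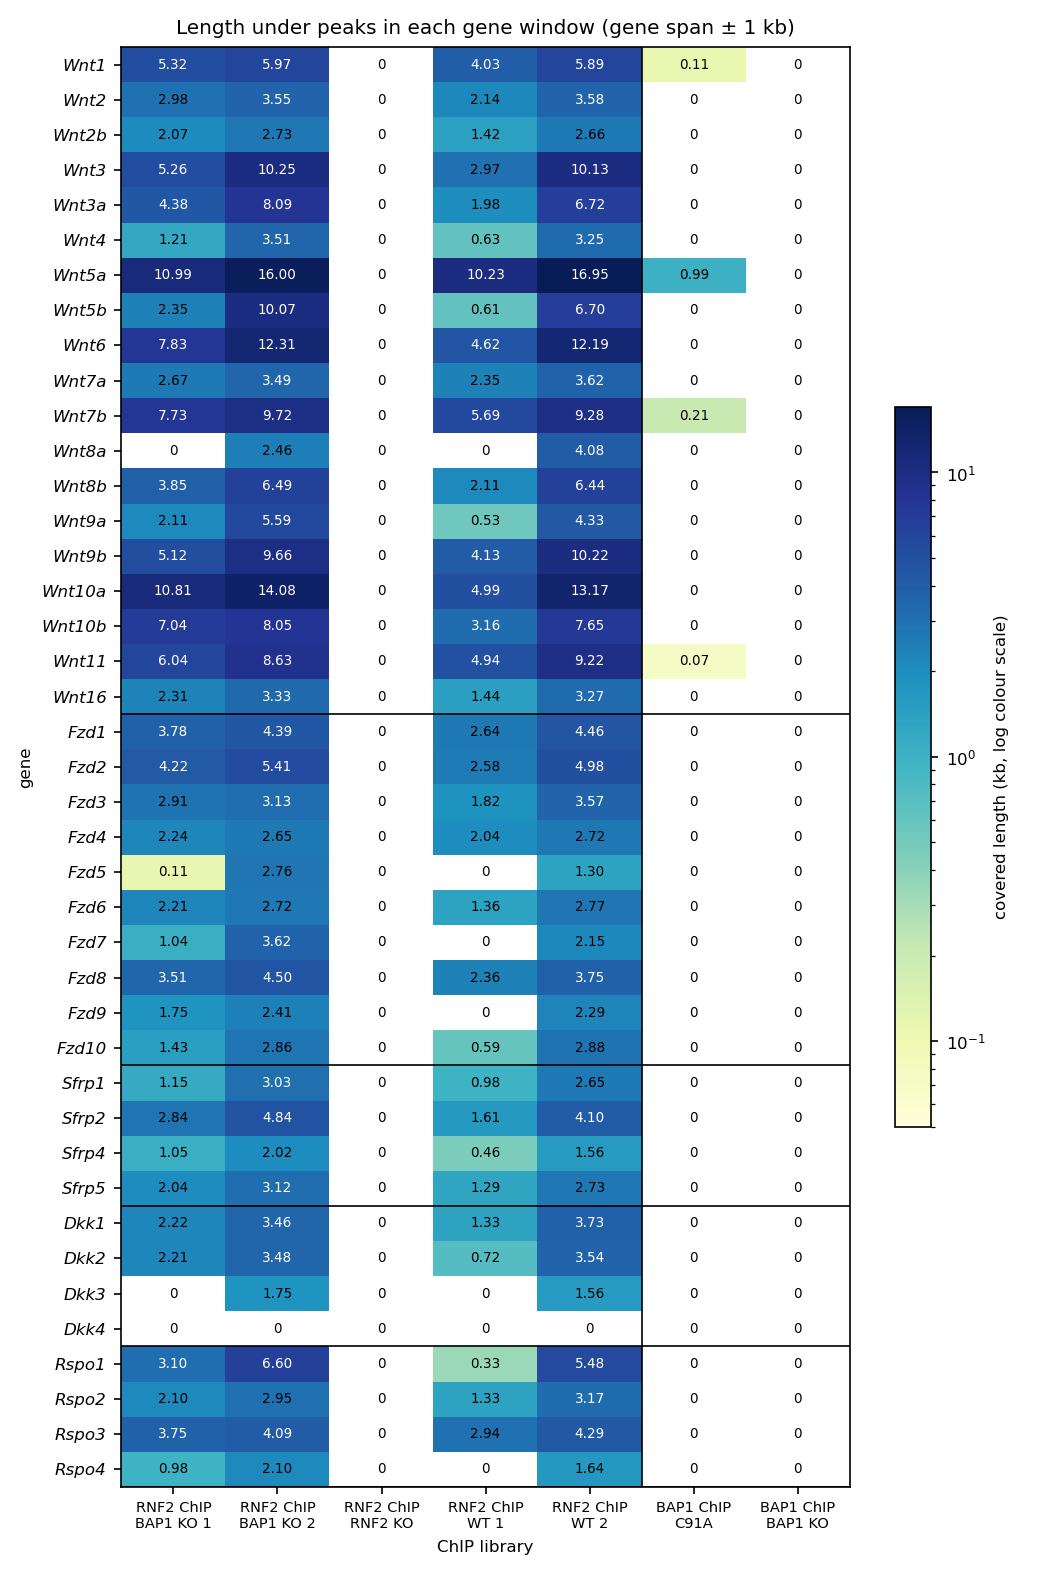
Length under peaks (kb, numbers in the cells and log colour scale) in the span ± 1 kb of each of the 41 genes (rows, by class) in each of the 7 ChIP libraries (columns). Wnt5a has the longest covered length in each wild-type library (10.2 and 16.9 kb), the RNF2 knockout and BAP1 knockout control columns are at 0 throughout, and Dkk4 is at 0 in all 7.

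Genes were ranked by the lower of their 2 wild-type folds, which for each ranked gene of the family is that of the first library. By this rank Wnt5a, Wnt10b and Wnt1 led the ligands, but in the second wild-type library Wnt10a (21.3) led and Wnt1 stood above Wnt8a alone. Fold enrichment over the local background is the authors' value for each peak and describes rank within a list. Wnt5a, which mainly drives β-catenin-independent signalling in cell movement and polarity, had a highest fold of 27.4 and 20.5 in the BAP1 knockout libraries and 15.0 and 21.0 in the wild-type libraries. Its window, the span at chr14:28504543-28527448 with 1 kb on each side, held peaks over 10986 and 16005 bp in BAP1 knockout. In wild type the Wnt5a window held peaks over 10232 and 16946 bp. The order of the genotypes thus differed between the first and second libraries at Wnt5a, which was higher in BAP1 knockout in the first and lower in the second. Its longest peak measured 9228 and 10489 bp in BAP1 knockout and 9060 and 15778 bp in wild type. By length it ranked at 1.82% and 0.49% from the top of its list in BAP1 knockout and at 2.82% and 0.33% in wild type.

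Wnt1, a ligand that patterns the midbrain and hindbrain, and Wnt10b, a ligand known for promoting bone over fat formation, are neighbours on chromosome 15. Wnt1 (chr15:98789857-98793830) had peaks over 5319 and 5974 bp in BAP1 knockout and 4026 and 5889 bp in wild type. This is 89.0% and 100% of its window in BAP1 knockout and 67.4% and 98.6% in wild type, so the short gene was almost wholly under RNF2 in the deep libraries of both genotypes. Its highest fold was 21.8 and 20.9 in BAP1 knockout and 11.4 and 12.8 in wild type. Wnt10b had 7043 and 8050 bp in BAP1 knockout and 3158 and 7647 bp in wild type, with a highest fold of 19.3 and 17.1 in BAP1 knockout and 12.7 and 20.7 in wild type. The 2 genes lie 11.65 kb apart, and no peak reached both windows.

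Other neighbouring ligands were also occupied in all 4 libraries, to differing lengths, and a single pair shared a peak. Wnt3, which is needed for gastrulation, and Wnt9b, which induces kidney tubules, overlap by 1098 bp on chromosome 11. A peak over both windows measured 3.99 and 5.87 kb in BAP1 knockout and 3.36 and 6.09 kb in wild type. These 2 genes are therefore not independent observations, and the family holds 40 loci when they are joined. Wnt6 and Wnt10a lie 6.70 kb apart on chromosome 1 and had separate peaks. Wnt10a had 10809 and 14083 bp under peaks in BAP1 knockout, and 4993 and 13168 bp in wild type. Wnt6 had 7833 and 12315 bp in BAP1 knockout and 4622 and 12188 bp in wild type. Wnt3a and Wnt9a lie 16.1 kb apart on chromosome 11 and shared no peak. In the first wild-type library they had only 1978 and 527 bp under peaks, and in the second 6721 and 4333 bp.

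Wnt8a, a ligand of the early primitive streak, was the only Wnt gene without RNF2 in the first libraries. It had 0 and 2465 bp under peaks in BAP1 knockout, and 0 and 4084 bp in wild type. In the second wild-type library these bases were split over 7 peaks, the strongest with a fold of 5.16, and in the second BAP1 knockout library over 5, the strongest with a fold of 7.92. The nearest peak of the first libraries lay 13.1 kb from the gene in BAP1 knockout and 131.4 kb in wild type.

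Of the receptors, Fzd1, Fzd8 and Fzd3 had the highest fold in the first wild-type library, whereas in the second Fzd6 (20.8) came next to Fzd1 and Fzd4 also ranked above Fzd3 and Fzd8. Fzd1 had a highest fold of 8.51 and 20.0 in BAP1 knockout and 5.64 and 21.3 in wild type, with 3780 and 4389 bp covered in BAP1 knockout and 2637 and 4457 bp in wild type. Fzd8 had 3509 and 4505 bp covered in BAP1 knockout and 2362 and 3751 bp in wild type, longer in BAP1 knockout both times. Fzd3, a receptor known for axon guidance and planar polarity, had 2909 and 3135 bp in BAP1 knockout and 1824 and 3571 bp in wild type, longer in BAP1 knockout in the first libraries and shorter in the second.

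Fzd5, Fzd7 and Fzd9 were the Frizzled genes whose call differed between genotypes, in the first libraries alone. Fzd9 (chr5:135248938-135251047), a receptor studied in bone formation, had 1748 and 2414 bp covered in BAP1 knockout and 0 and 2291 bp in wild type. Its peak had a fold of 10.9 and 16.2 in BAP1 knockout and 11.2 in the second wild-type library, and it covered the CG-rich promoter printed above. Fzd7 (chr1:59482147-59486955), a receptor used by pluripotent cells, had 1044 and 3622 bp in BAP1 knockout and 0 and 2147 bp in wild type. In the first BAP1 knockout library its 2 peaks, of 323 and 721 bp, lay on either side of the promoter and had folds of 2.81 and 3.05. Fzd5 (chr1:64730558-64737750), which is needed for blood vessels of the yolk sac, had 113 and 2761 bp in BAP1 knockout and 0 and 1304 bp in wild type. The 113 bp came from the edge of a 444 bp peak with a fold of 2.81 whose summit lay outside the window, so this call was lost when the window ended at the gene, when 200 bp of overlap were asked for and when the summit had to lie inside.

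Secreted antagonists come in 2 families, and the Sfrp proteins, which carry a Frizzled-like Wnt-binding domain, are given first. Sfrp2 had the highest fold enrichment of the Sfrp genes in each wild-type library, with 12.8 and 21.3 in BAP1 knockout and 5.26 and 18.6 in wild type. Its covered length was 2844 and 4841 bp in BAP1 knockout and 1613 and 4098 bp in wild type. Both values were longer in BAP1 knockout than in the wild-type library of the same pair. Sfrp5 had 2043 and 3116 bp in BAP1 knockout and 1288 and 2734 bp in wild type, and Sfrp1 had 1154 and 3026 bp in BAP1 knockout and 982 and 2654 bp in wild type. Sfrp4 was the least covered, with 1052 and 2016 bp in BAP1 knockout and 461 and 1557 bp in wild type. All 4 Sfrp genes were longer in BAP1 knockout in both pairs of libraries, as were 66.5% of the 2840 genes with a peak in all 4.

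Dkk1 and Dkk2, which bind the Lrp5 and Lrp6 co-receptors, were occupied in all 4 libraries. Dkk1 had 2219 and 3455 bp covered in BAP1 knockout and 1326 and 3731 bp in wild type, and Dkk2 had 2211 and 3482 bp in BAP1 knockout and 722 and 3543 bp in wild type. Both were longer in BAP1 knockout in the first libraries and shorter in the second. Dkk3, the most divergent of the family and not a classical co-receptor antagonist, had 0 and 1745 bp in BAP1 knockout and 0 and 1556 bp in wild type. Dkk4 (chr8:22623685-22628018) was the only gene of the 41 with no RNF2 peak in any library. Its nearest RNF2 peak lay 177.9 and 6.17 kb from the gene in BAP1 knockout and 430.2 and 29.6 kb in wild type.

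The R-spondins, which amplify Wnt signals, were led in the first wild-type library by Rspo3 and in the second by Rspo1. Rspo3 had a highest fold of 18.6 and 12.4 in BAP1 knockout and 9.49 and 17.9 in wild type. Rspo3 had 3753 and 4088 bp covered in BAP1 knockout and 2945 and 4294 bp in wild type, and Rspo2, known for limb and lung growth, had 2103 and 2946 bp in BAP1 knockout and 1330 and 3172 bp in wild type. Rspo1, known for ovary formation, had a highest fold of 12.2 and 22.9 in BAP1 knockout and 3.51 and 20.1 in wild type. It had 3100 and 6599 bp in BAP1 knockout and 331 and 5483 bp in wild type. At Rspo1 the first wild-type library held a single peak of 331 bp, so that this library stood far below the other 3. Rspo4 had 978 and 2104 bp in BAP1 knockout and 0 and 1643 bp in wild type, and was called in 3 of the 4 libraries.

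The comparison of genotypes asks how RNF2 occupancy of these genes differs once BAP1 is lost. No gene of the family was gained across all 4 libraries, that is, called in both BAP1 knockout libraries and in neither wild-type library, and 0.133% of all genes were. None was lost in the mirror sense, and 0% of all genes were. Between the first libraries, 4 of the 41 (Fzd5, Fzd7, Fzd9 and Rspo4) had a peak in BAP1 knockout alone, a share of the family that is below the 13.9% of all genes. In the same pair 0 of the 41 had a peak in wild type alone, as did 0.377% of all genes. Between the second libraries 0 of the 41 had a peak in BAP1 knockout alone (9.64% of all genes) and 0 in wild type alone (1.4% of all genes). With 34 and 40 of the 41 genes already occupied in wild type, few calls could be gained.

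Covered length gave different answers in the 2 pairs. Between the first libraries, all 34 genes with a peak in both were longer in BAP1 knockout, as were 91.8% of 2840 genes. Their median log2 ratio of BAP1 knockout over wild type was 0.69 in the family and 0.72 over all genes, with values from 0.10 at Wnt5a to 3.23 at Rspo1. Between the second libraries, 25 of 40 were longer in BAP1 knockout, against 84.9% of 11729 genes. The median log2 ratio was then 0.03 in the family and 0.53 over all genes, with values from -0.73 at Wnt8a to 1.08 at Fzd5.

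The gap to other genes in the second libraries was narrower among genes with a peak in all 4 libraries. There the second libraries gave 20 of 34 longer in BAP1 knockout in the family and 69.6% of 2840 over all genes, with median log2 ratios of 0.02 and 0.11. Of the family, 20 of 34 were longer in BAP1 knockout in both pairs, and 66.5% of all genes were. The log2 ratio of the genotype means had a median of 0.26 over the 34 genes and 0.32 over all 2840, and it was below 0 at Wnt5a alone. Without the first wild-type library, both BAP1 knockout libraries stand against the deep wild-type library alone, and this median was -0.15. It was then taken over more genes, as Fzd5, Fzd7, Fzd9 and Rspo4 have a peak in each library kept. Without the second wild-type library the median was 0.99. It was 0.53 without the first BAP1 knockout library and 0.003 without the second. Paired within first and second libraries (replicate block), the median was 0.37. Total covered length over the 41 genes was 135 and 216 kb in BAP1 knockout and 82.4 and 205 kb in wild type. The mean fold over whole lists, not over the family, was 7.22 and 5.56 in BAP1 knockout and 5.40 and 4.92 in wild type. The lists differ in length, so these means do not compare RNF2 levels between genotypes.

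**Figure D3:**
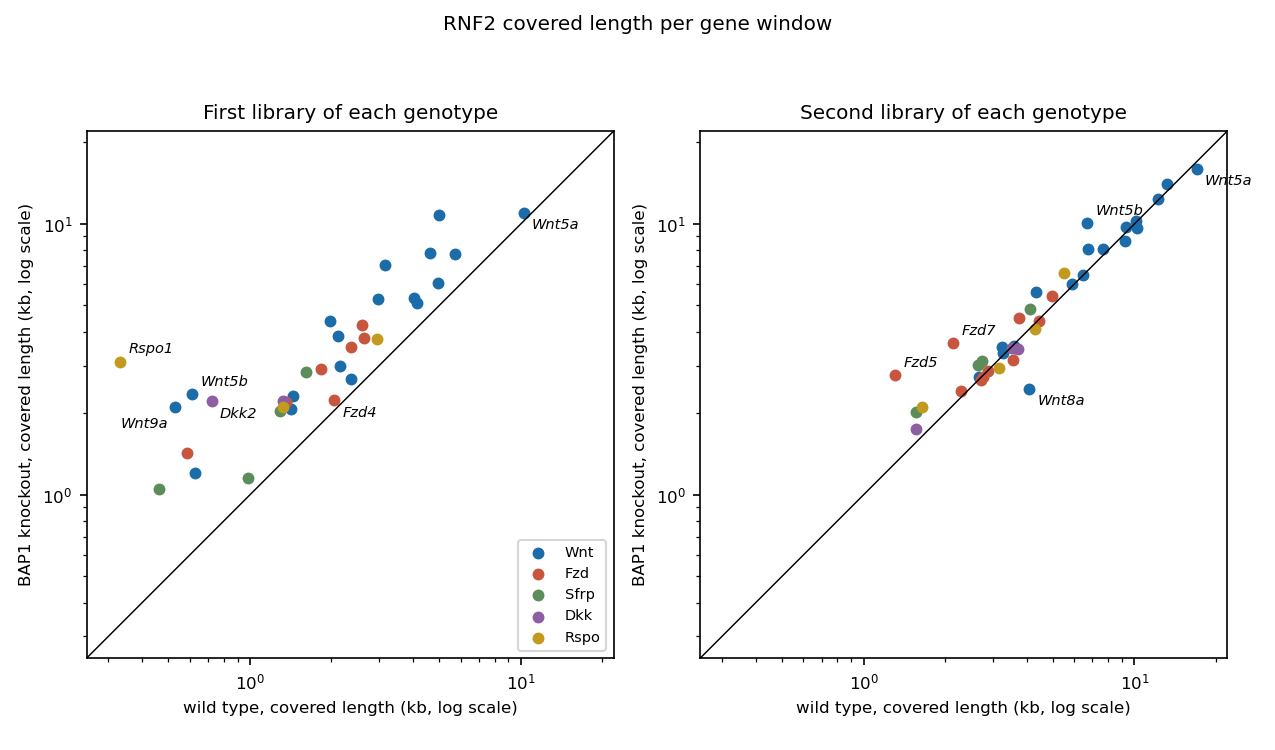
Covered length per gene window in BAP1 knockout (y axis, kb, log scale) against wild type (x axis, kb, log scale) for the first libraries (left) and the second libraries (right). Each point is a gene with a peak in both libraries, coloured by class, and the line marks equal lengths. All 34 points on the left lie above the line, and 25 of 40 do on the right.

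Classes followed the same split, and no ratio was tested. Of the genes with a peak in all 4 libraries, 69.6% of 2840 were longer in BAP1 knockout in the second libraries. By class these were 13 of 18 Wnt, 2 of 7 Frizzled, 4 of 4 Sfrp, 0 of 2 Dkk and 1 of 3 Rspo genes. Their median log2 ratio was 0.02 for Wnt and -0.02 for Frizzled, so the counts of these 2 classes turn largely on small differences in length. The median log2 ratio over all called genes of a class was 0.72 in the first and 0.02 in the second libraries for Wnt, and 0.67 and 0.03 for Fzd. It was 0.74 and 0.21 for Sfrp, 1.18 and -0.03 for Dkk, and 0.66 and 0.10 for Rspo. In each class the first libraries thus gave the larger ratio. Wnt5b and Wnt9a were longer in BAP1 knockout in both pairs. Wnt5b had 2353 and 10075 bp in BAP1 knockout and 613 and 6702 bp in wild type, and Wnt9a had 2114 and 5586 bp in BAP1 knockout and 527 and 4333 bp in wild type. Both were chosen after their values were seen. Depth, software version and fragment length changed together between the 2 pairs, and their part in the difference cannot be told apart.

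Within the lists, peaks of the family ranked high in the deep libraries. The gene's best peak by fold lay in the top 10% of its list for 10 of 38 occupied genes of the family in the first BAP1 knockout library (13% of all occupied genes) and for 34 of 40 in the second (26.2%). It did so for 4 of 34 in the first wild-type library (12.8%), namely Wnt1, Wnt5a, Wnt6 and Wnt10b, and for 33 of 40 in the second (21.8%). The count in the first wild-type library is thus near the background. The median rank of the best peak was at 18.7% and 3.80% from the top in the BAP1 knockout libraries and at 37.7% and 3.52% in the wild-type libraries. Over all occupied genes it was at 42.7% and 21.8% in BAP1 knockout and at 44.2% and 26.4% in wild type.

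Peaks were next placed against the annotated starts. Among family genes with an annotated start and a peak, the start was inside a peak for 23 of 27 and 26 of 27 in the BAP1 knockout libraries and for 14 of 23 and 25 of 27 in the wild-type libraries. The shares for all genes were 66.0% and 72.7% in BAP1 knockout and 60.0% and 64.8% in wild type. The summit of the best peak was downstream of the start for 22 of 27 in each BAP1 knockout library, and for 20 of 23 and 23 of 27 in the wild-type libraries. Over all genes with a start and a peak, the summit was downstream for 74.0% and 70.4% in BAP1 knockout and for 73.6% and 72.2% in wild type. The median distance was 505 and 433 bp in BAP1 knockout and 557 and 336 bp in wild type. Over all genes it was shorter in each library, at 409.5 and 333 bp in BAP1 knockout and 444 and 305 bp in wild type.

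Some ligands had their best peak far from the start given in the promoter table. At Wnt8b, a ligand of the forebrain, the best summit lay 18276 and 18336 bp downstream of the start in BAP1 knockout and 18219 and 18380 bp downstream in wild type. The 4 summits thus lay close together, near the far end of a gene that spans chr19:44493472-44514273. The peaks covered 3853 and 6491 bp in BAP1 knockout and 2108 and 6442 bp in wild type. The promoter printed above, with its 6 CG, had no peak. At Wnt9b, on the − strand, the best summit lay 23998 and 23864 bp upstream of the listed start in BAP1 knockout. In wild type it lay 24093 and 24018 bp upstream, and in each library this is the peak shared with Wnt3. The span of Wnt9b runs past the listed start and overlaps Wnt3 by 1098 bp. The shared peak thus lies near the 5′ end of the Wnt9b span, and the distance is to a start inside the gene. A further peak lay over the listed Wnt9b promoter in all 4 libraries. Wnt3 had its best peak 36206 bp downstream of the start in the first wild-type library alone, with a fold of 4.78 there against 3.81 for the peak near the start.

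**Figure D4:**
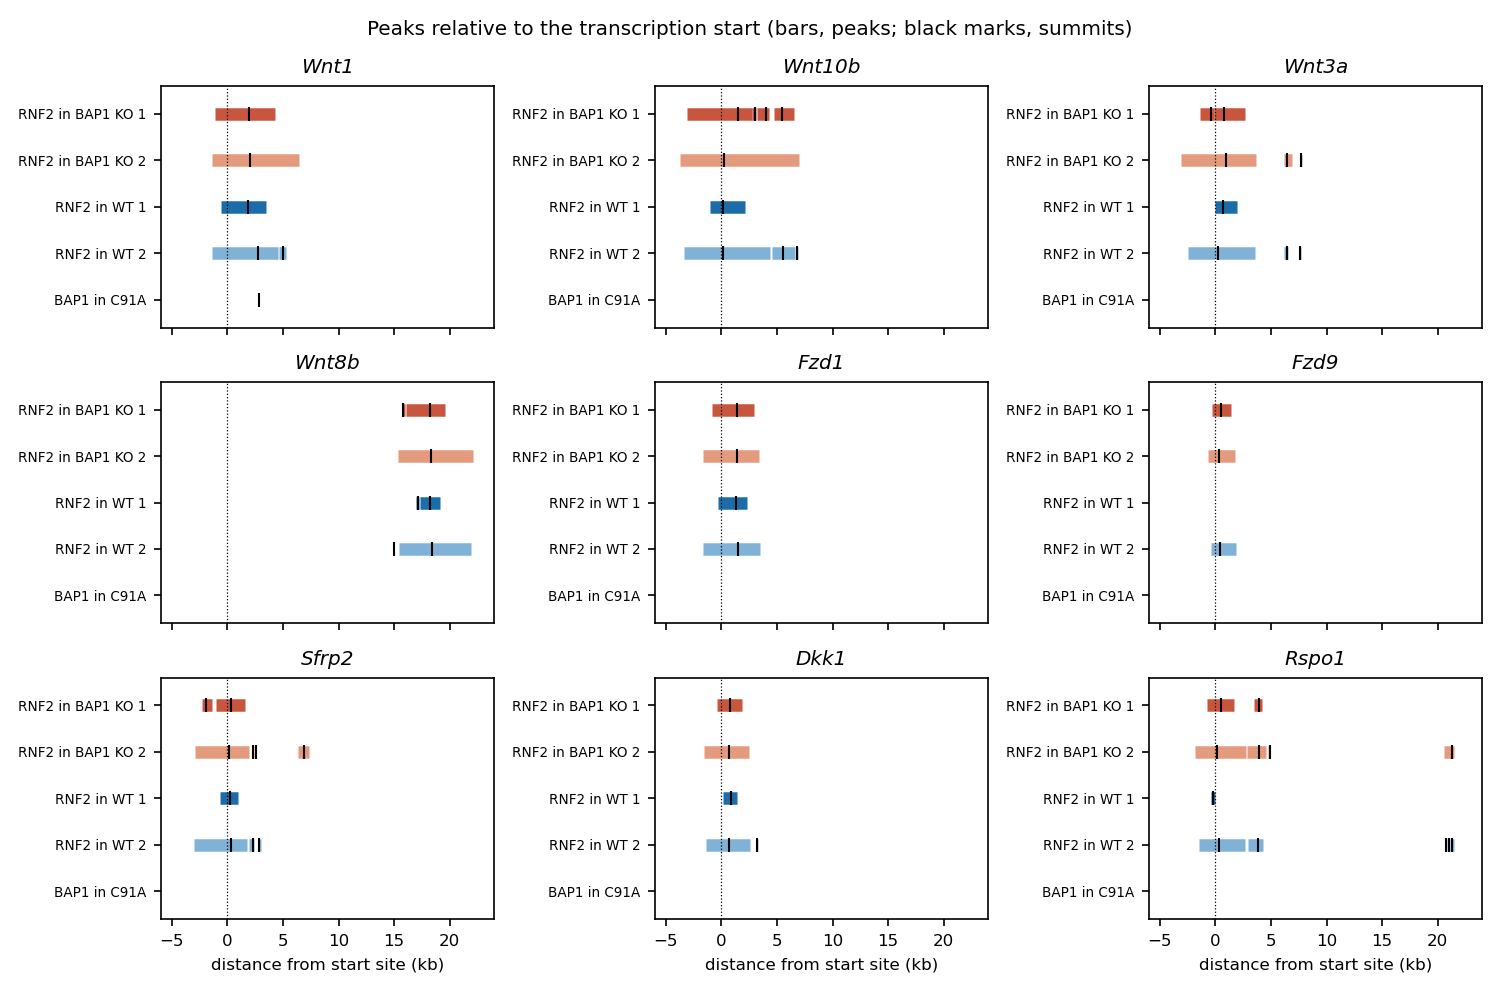
Peaks (bars) and summits (black marks) by distance from the annotated start (x axis, kb, 5′ to 3′ of the gene) for 9 genes, with 1 row per library. In each library with bars, an RNF2 bar spans the start or lies within 1 kb of it except at Wnt8b, where the bars begin 14877 bp or more downstream. Fzd9 has no bar in the first wild-type library, and of the 9 genes Wnt1 alone has a BAP1 mark.

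BAP1 was called at 4 of the 41 genes in C91A cells, and 4.52% of all genes were called. In the BAP1 knockout control it was called at 0 of the 41, and 0.124% of all genes were called there. All 4 were ligands, Wnt1, Wnt5a, Wnt7b and Wnt11, and each was also occupied by RNF2 in both wild-type libraries, a combination found at 2.23% of all genes. The 4 shared genes made up 100% of the family's BAP1 genes and 11.8% of its RNF2 genes. Among all genes the 485 shared genes made up 49.3% of BAP1 genes and 16.6% of RNF2 genes. Both wild-type libraries had RNF2 at 34 of the 41 genes, against 13.4% of all genes. Most family genes with BAP1 would thus share RNF2 whichever they were, and the 100% says nothing further about BAP1. There was 1 C91A library, so the calls have no replicate check, and this library was far deeper than its control.

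Wnt5a had 7 BAP1 peaks over 989 bp, the densest of the family, between chr14:28504931 and chr14:28506775, which lies inside the longest RNF2 peak of each of the 4 libraries. Wnt7b, a ligand of lung and kidney growth, had 3 BAP1 peaks of 57 to 87 bp. Its RNF2 peaks covered 7730 and 9725 bp in BAP1 knockout and 5691 and 9281 bp in wild type. Wnt11, which acts in convergent extension movements, had 1 BAP1 peak of 73 bp at chr7:98835103-98835175, across its first start. RNF2 covered 6045 and 8629 bp of the Wnt11 window in BAP1 knockout and 4938 and 9218 bp in wild type. Wnt1 had 1 BAP1 peak of 110 bp at chr15:98792565-98792674, whose summit lay 2798 bp downstream of the start and thus outside the printed promoter.

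All 12 BAP1 peaks of the family were narrow, 57 to 313 bp long with folds of 3.03 to 3.77, near the mean of 3.56 of their list. Each overlapped an RNF2 peak in all 4 BAP1 knockout and wild-type libraries. Of the 12, 7 lay at Wnt5a, and the share over all BAP1 peaks of the list was not counted, so this overlap has no background beside it. The 4 genes were also among the most covered by RNF2, at ranks 1 (Wnt5a), 2 (Wnt7b), 4 (Wnt11) and 7 (Wnt1) of the family in the first wild-type library and 1, 6, 7 and 12 in the second. Their −log10 q values were 1.92 to 4.29, so none would be called at a q threshold of 5 on that scale.

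The pathway holds further genes, of which 42 were listed by role. Their median span was 56.4 kb, against 17.2 kb over all genes. Neither the shares nor the gains given below were adjusted for span. RNF2 was called at 24 and 38 of the 42 in the BAP1 knockout libraries, where 26.9% and 63.5% of all genes were called, and at 10 and 37 in the wild-type libraries, where 13.4% and 55.3% were. The 10 with a peak in both wild-type libraries were the receptor tyrosine kinase Ror1, the Dkk receptor Kremen2, the antagonists Frzb, Sost, Notum and Draxin, the Wnt secretion factor Wls, the feedback inhibitors Axin2 and Nkd1, and the transcription factor Lef1. Of these, 7 came from the 21 membrane and secreted proteins and 3 from the 21 intracellular ones. Frzb, the relative of the Sfrp genes, had a highest fold of 23.9 and 17.1 in BAP1 knockout and 12.5 and 22.4 in wild type, and Sost, which encodes sclerostin, had 15.8 and 21.5 in BAP1 knockout and 6.74 and 14.4 in wild type. Wls had 10.8 and 16.0 in BAP1 knockout and 4.94 and 17.5 in wild type.

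Lef1, the nuclear partner of β-catenin, had the highest wild-type fold of the 42 by the lower library, but not in the second library, where Frzb led. Its folds were 22.7 and 15.9 in BAP1 knockout and 17.2 and 16.7 in wild type. It also had BAP1 peaks in C91A cells, the strongest with a fold of 4.29. Dvl1, a cytoplasmic relay of Frizzled signals, was the other pathway gene with BAP1, without RNF2 in the first libraries. Between the first libraries 14 of the 42 had RNF2 in BAP1 knockout alone (13.9% of all genes) and 0 in wild type alone (0.377% of all genes). Between the second libraries Dvl3 and Pygo2 were called in BAP1 knockout alone (9.64% of all genes), and Ctnnb1, which encodes β-catenin, in wild type alone (1.4% of all genes). Of these 42, the genes named without BAP1 and outside the 4 highest folds were chosen after their values were seen.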

How the data were processed

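ChIP-seq of RNF2 and BAP1 comprised 7 ChIP libraries and 7 inputs. Reads of 50 bp were mapped to GRCm38 (mm10) with GSNAP, per the submitters' processing notes, in a version not given in the sources used here. Per the file headers, the authors ran MACS2 on every ChIP library with the matching input and kept q-values up to 0.05. Version 2.1.0.20150420 made the lists of BAP1 and of the first RNF2 libraries, and version 2.1.1.20160309 those of the other RNF2 libraries. Fragment lengths in the headers were 323 and 100 bp in BAP1 knockout, 100 bp in RNF2 knockout, 297 and 100 bp in wild type, 50 bp in C91A and 147 bp in the BAP1 knockout control. Where the labels number only the second library of a genotype, the other counts as the first. The deposited lists give each peak's pileup signal, −log10 of its p- and q-values, and its fold enrichment, a ratio. Fold was used to describe peaks and to rank genes, not to compare levels between libraries, −log10 q as an alternative threshold, and the pileup signal not at all.

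Other sequences than chromosomes 1 to 19, X and Y were dropped. Genes came from the RefSeq table of GRCm38.p6, less 108 entries positioned in the first 3 Mb of a chromosome. Covered length is the union of peaks inside a window. Distances use the promoter table's starts, and the planned window at the start used those where given and otherwise both gene ends. Named genes are, per class, the 3 with the highest wild-type fold (the lower of both libraries), those whose call differed between genotypes, those with BAP1, without any RNF2 peak or sharing a peak, and of the pathway genes the 4 highest and those with BAP1. Other genes of the family given with values (Wnt6, Wnt8a, Wnt8b, Wnt10a, Sfrp4, Dkk3, Fzd4, Fzd6 among them) were chosen after their values were seen. The members and lists were chosen with earlier results of these data known. Interval functions were tested on simulated data. Python 3.11.15, pandas 2.3.3 and numpy 2.4.6 were used. Counts of genes carry no test, and the alternatives tried are given at the end.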

Additional observations from a re-analysis of the deposited data

How the results depend on the processing

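Under 13 other settings, 144 values kept their direction within the tolerance set, which was 1.5 times for counts and shares and, for the ratio, 0.476 (the SD of the 2 pair medians), 16 moved further and 1 reversed. The tolerance for the ratio is wider than the ratio itself. A median of 0.003 without the second BAP1 knockout library thus counted as within it. The median log2 ratio of covered length (0.26) ranged from -0.15 to 0.99 when a library was left out, each over the genes with a peak in all libraries kept. It was 0.37 with the first and second libraries of each genotype paired (replicate block), and the pair number reflects depth and software as well. When a library was left out, the genes gained in BAP1 knockout were between 0 and 4 (4 without the second wild-type library, 0 in the report). The other pathway genes with RNF2 in wild type were between 10 and 37 (37 without the first wild-type library, 10 in the report), and all protein-coding genes so occupied 55.3% and 13.4%. Genes gained between the first libraries, 4 in the report, where 13.9% of all genes were, numbered 10 at a −log10 q of at least 10. At that threshold both wild-type libraries kept 26 family genes and both BAP1 knockout libraries 36, against 34 and 38 in the report. With all RNF2 lists shortened to their 4038 strongest peaks, 1 gene was gained between the first libraries. There 1 gene was lost between the second libraries, and none in the report. Shares of all genes gained or lost were not counted at these settings. BAP1 genes, and those with RNF2 as well, were 4 in the report, 0 at a −log10 q of at least 5 or 10, and 1 when 200 bp of overlap were asked for. With a window of 1 kb around the start, 10 of 39 genes were longer in BAP1 knockout between the second libraries, against 25 of 40 in the report. A window wholly under peaks in both libraries, as at Wnt1, Wnt2b and Wnt3, is equal and counts as not longer. The share over all genes was not counted there. In that window 6 of the 42 other pathway genes were occupied in both wild-type libraries, and 11.4% of all genes were. In the report these were 10 of 42 and 13.4%. The cause of these shifts was not tested. Depth differed between the first and second libraries together with the calling, so absent calls in the first are not evidence of absence.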
